A study of Drosophila melanogaster with 9 samples.

Results

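The RNA of 9 genes of *Drosophila melanogaster* that encode partners of heterochromatin protein 1a (HP1a) or modifiers of position-effect variegation was followed in cultured cells: *Su(var)3-7* (CG8599), *Su(var)2-HP2* (CG12864), *ADD1* (CG8290), *XNP* (CG4548), *woc* (CG5965), *Su(var)2-10* (CG8068), *HDAC1* (CG7471), *Su(var)3-3* (CG17149) and *Kdm4A* (CG15835). They were chosen by name and role, not by a measured value, but with earlier results of these data known. They are 9 of the 15168 genes in the deposited table, with 22 of its 22353 transcripts. All 9 were among the 6573 genes that were tested, those whose TPM averaged 1 or more across the libraries.

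Position-effect variegation is the patchy silencing of a gene that has been moved next to heterochromatin, and mutations that relieve it were named Su(var), for suppressor of variegation. Many of these genes encode parts of the silencing machinery: Su(var)3-9 methylates histone H3 at lysine 9, HP1a binds that mark, and further proteins dock on HP1a or prepare the histones beforehand. Su(var)3-7 is a zinc finger protein and Su(var)2-HP2 a large nonhistone protein, and both bind HP1a directly. ADD1 and XNP together correspond to the mammalian ATRX protein, ADD1 carrying its histone-reading domain and XNP its helicase-like motor. The zinc finger protein woc works with the related protein HP1c. Su(var)2-10 is a ligase of the PIAS family that attaches the small protein SUMO. HDAC1 removes acetyl groups from histones, Su(var)3-3 is the fly LSD1 demethylase of histone H3 lysine 4, and Kdm4A is a histone demethylase that binds HP1a.

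The libraries came from S2 cells, an embryo-derived line of hemocyte-like character, 3 days after transfection with 1 µg of double-stranded RNA (dsRNA). The dsRNA was directed against GFP (the control, a sequence the cells do not carry), HP1a or Su(var)3-9, and each of these 3 groups held 3 replicates. By these labels all groups shared the transfection, the reagent and the single cell line. The titles of the control libraries name only S2 cells, and the GFP dsRNA is given in another field of their labels. Whether the controls were transfected in the same way was not tested. The study asked how depletion of the 2 heterochromatin proteins alters gene expression. The comparisons below ask whether the genes whose products work beside these proteins changed their own RNA.

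The values are TPM, a length-corrected share of the RNA of a library, scaled to the same total in every library. They do not carry the sequencing depth, which was not used here, so no counting interval is given. Fold changes were fitted on log2(TPM + 1), which understates the change of low genes, with the limma package, and a gene was called at a Benjamini-Hochberg adjusted p-value under 0.05 over all genes tested. Nothing in the labels says that the replicates came from separate cultures, so the p-values measure only the spread between these libraries. Protein-coding genes held only 9.54% to 15.1% of the TPM of a library, and most genes moved together: the median gene was at a log2 fold change of -0.27 in libraries that carry the label HP1a RNAi and -0.23 in those labelled Su(var)3-9 RNAi, and at 0.00 and -0.01 after division by median-ratio size factors. Changes of single genes are therefore given on both scales. Su(var)3-9 RNAi replicate 3 stood apart from the other libraries, with correlations of 0.751 to 0.811 against 0.928 to 0.990 between all other pairs. The targets checked the labels: the HP1a gene (CG8409) was at 285 to 393 TPM in the libraries labelled with it against 53.8 to 91.5 TPM in the control, and CG6476, an identifier that Su(var)3-9 shares with eIF2gamma, was at 262 to 463 TPM against 23.8 to 36.9 TPM. Both target genes were thus higher and not lower, and each was higher in 1 transcript: CG8409-RB was at 282 to 389 TPM against 14.1 to 44.9 TPM in the control, and CG6476-RA at 240 to 433 TPM against 1.93 to 3.25 TPM. The other transcript of the HP1a gene, CG8409-RA, was at 3.55 to 5.29 TPM against 34.8 to 67.5 TPM, and CG6476-RB at 20.1 to 30.5 TPM against 21.9 to 33.8 TPM. A direction below describes the libraries as labelled, not the loss of a protein. Of the 8 hemocyte markers, 6 were among the genes tested. All 8 together had a summed level of 35.7 to 47.9 TPM in the control, 36.4 to 39.9 TPM under HP1a RNAi and 29.0 to 56.6 TPM under Su(var)3-9 RNAi, while *NimC1* was at or near 0 (at most 0.21 TPM). Neuron markers summed to at most 1.67 TPM, muscle markers to at most 0.52 TPM, germline markers to at most 1.44 TPM and ovarian somatic markers to 1.58 to 2.52 TPM. In such bulk RNA, fewer cells with an RNA and less of it per cell cannot be told apart.

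The 9 genes were expressed at low to moderate levels. *HDAC1* was the most abundant, at 15.2 ± 2.81 TPM in the control (SD, n = 3), and ranked above 77.1% to 83.0% of the tested genes depending on the library. *Kdm4A* was the least abundant, at 1.84 ± 0.306 TPM (SD, n = 3), above only 5.29% to 24.0% of them. Between these lay *woc* with a control mean of 9.65 TPM, *XNP* with 9.19 TPM, *Su(var)2-10* with 7.48 TPM, *ADD1* with 6.27 TPM, *Su(var)3-7* with 4.12 TPM, *Su(var)2-HP2* with 3.69 TPM and *Su(var)3-3* with 2.51 TPM. The RNA of the deacetylase was thus several times as abundant as that of the demethylase Su(var)3-3: the ratio of *HDAC1* to *Su(var)3-3* was 6.04 ± 0.849 in the control (SD, n = 3) and stayed between 5.41 and 7.48 over all 9 libraries. *XNP* exceeded *ADD1* by a ratio of 1.23 to 1.60 in all 9 libraries. In the order of control levels, the ranges of *woc* and *XNP*, of *Su(var)2-10* and *ADD1*, and of *Su(var)3-7* and *Su(var)2-HP2* overlapped across libraries. Within single control libraries *woc* was above *XNP* and *Su(var)2-10* above *ADD1* in all 3. *Su(var)3-7* was above *Su(var)2-HP2* in 2 of them. All other neighbours in the order of control levels had separate ranges. Under HP1a RNAi the order of the means was the same, with *XNP* and *Su(var)2-10* now overlapping at 6.55 and 6.44 TPM and *Su(var)2-HP2* and *Su(var)3-3* at 2.76 and 2.14 TPM. Under Su(var)3-9 RNAi the ranges of every pair of neighbours overlapped, and *Su(var)2-10* took the place above *XNP*. Within single libraries of that group, *HDAC1* over *woc*, *Su(var)2-10* over *XNP*, *XNP* over *ADD1* and *Su(var)3-7* over *Su(var)2-HP2* held in all 3. The order of the other neighbours did not.

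**Figure D1:**
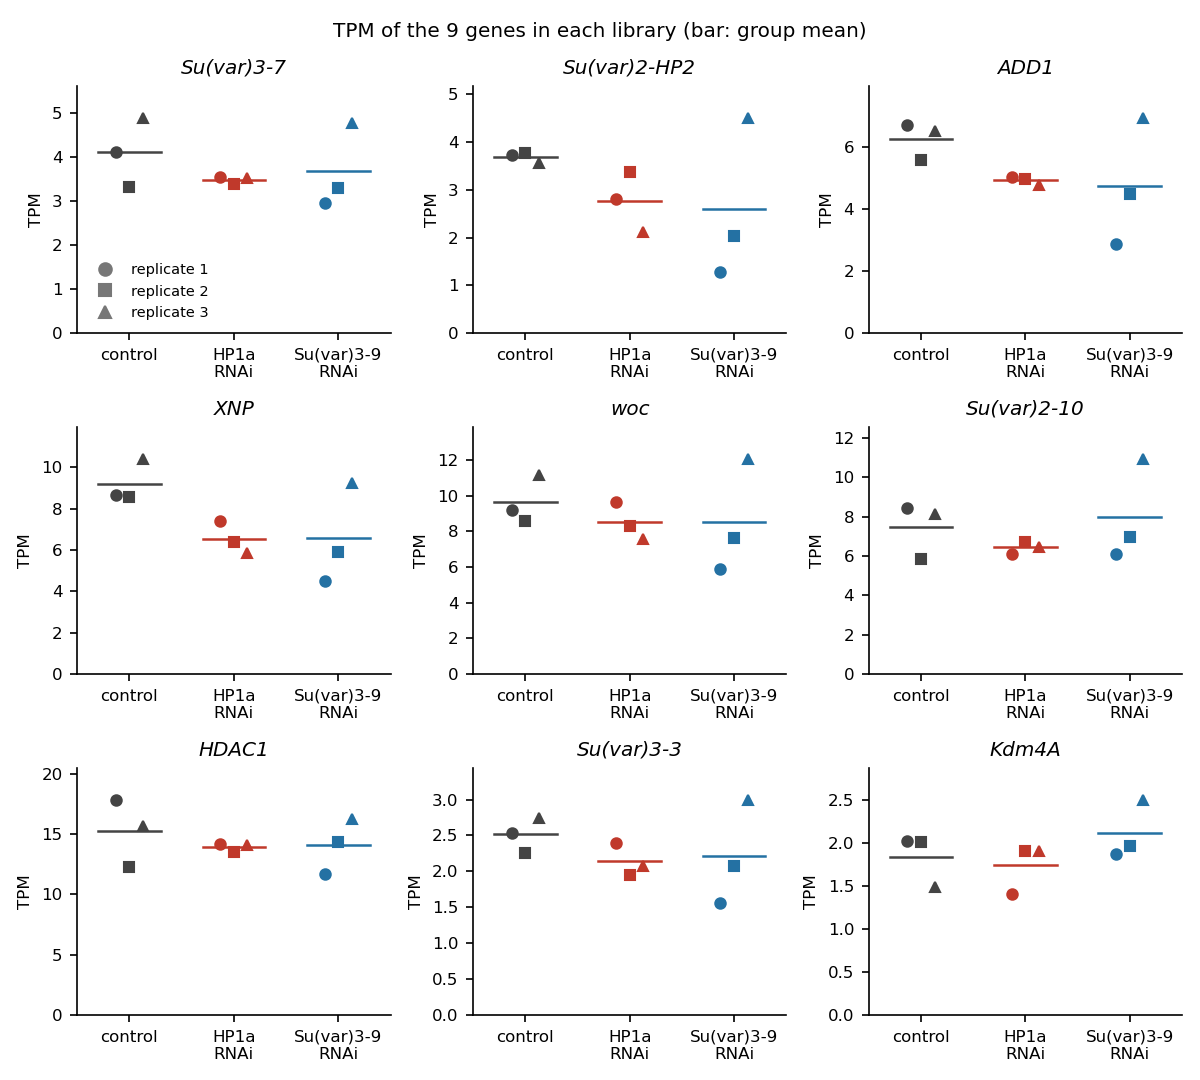
TPM (vertical axis, from 0) of each of the 9 genes in the 9 libraries, with 1 panel per gene, 1 point per library shaped by replicate number and a bar at the group mean. HP1a RNAi libraries lie below every control library for *Su(var)2-HP2*, *ADD1* and *XNP*, and Su(var)3-9 RNAi replicate 3 is the highest library of its group for all 9 genes.

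In the libraries labelled HP1a RNAi, none of the 9 genes passed the test. The fitted log2 fold changes lay between -0.43 for *XNP* and -0.05 for *Kdm4A*, and all 9 were below 0, as were 90.5% of all tested genes. After size factors the values of *XNP*, *Su(var)2-HP2* and *ADD1* were still below 0, while those of the other 6 genes turned to above 0. The lowest values belonged to *XNP*, *Su(var)2-HP2* and *ADD1*, while *Su(var)3-7* and *Kdm4A*, whose products also bind HP1a, were at -0.18 and -0.05. Against the median gene the set was not low: its median of -0.17 lay 0.09 above the median of -0.27 over all genes.

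Among the HP1a partners, *XNP* had 8.64, 8.55 and 10.4 TPM in the control and 7.41, 6.40 and 5.85 TPM under HP1a RNAi. All 3 HP1a RNAi libraries were below every control library. The log2 fold change was -0.43 (SE 0.17, 95% interval -0.80 to -0.06), with an unadjusted p-value of 0.0261 and a limma adjusted p-value of 0.164. After size factors the control libraries were at 6.74, 9.02 and 8.16 and the HP1a RNAi libraries at 8.02, 7.24 and 6.17 scaled TPM, so that the groups overlapped. The log2 fold change on that scale was -0.14 (95% interval -0.45 to 0.17).

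*ADD1*, which encodes the histone reader that pairs with XNP, had 6.70, 5.59 and 6.51 TPM in the control and 5.04, 4.97 and 4.76 TPM under HP1a RNAi. The groups did not overlap, and the HP1a RNAi libraries had an SD of only 0.146 TPM. As a log2 fold change this was -0.29 (SE 0.15, with an adjusted p-value of 0.249 in limma) as deposited and -0.01 (95% interval -0.22 to 0.20) after size factors. The ratio of *XNP* to *ADD1* was 1.47 ± 0.161 in the control and 1.33 ± 0.126 under HP1a RNAi (SD, n = 3 each), with overlapping ranges.

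*Su(var)2-HP2* was, relative to its level, the steadiest of the 9 genes in the control, at 3.73, 3.78 and 3.57 TPM, and had 2.80, 3.38 and 2.11 TPM under HP1a RNAi. Every HP1a RNAi library was again below every control library, but the HP1a RNAi libraries spread over a wider range than the controls. The log2 fold change came to -0.33 (SE 0.16, limma adjusted p-value 0.218), and to -0.08 (95% interval -0.49 to 0.33) after size factors. Without HP1a RNAi replicate 3 it was -0.20 as deposited. Over all alternative settings it ran from -0.45 to -0.08. *Su(var)3-7*, the other direct HP1a binder, had 4.13, 3.33 and 4.89 TPM in the control and 3.55, 3.40 and 3.53 TPM under HP1a RNAi. Its HP1a RNAi libraries lay inside the control range, with a log2 fold change of -0.18 (SE 0.16, limma adjusted p-value 0.438).

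The HP1c partner *woc* had 9.17, 8.60 and 11.2 TPM in the control and 9.67, 8.31 and 7.55 TPM under HP1a RNAi. Its groups overlapped, with a log2 fold change of -0.16 (SE 0.18, limma adjusted p-value 0.520). The SUMO ligase gene *Su(var)2-10* had 8.45, 5.85 and 8.13 TPM in the control and 6.13, 6.72 and 6.48 TPM under HP1a RNAi. Here control replicate 2 was the lowest of the 6 libraries, and a log2 fold change of -0.17 was fitted (SE 0.18, limma adjusted p-value 0.486).

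Of the histone-modifying enzymes, *HDAC1* had 17.8, 12.2 and 15.6 TPM in the control and 14.2, 13.5 and 14.1 TPM under HP1a RNAi, *Su(var)3-3* had 2.54, 2.26 and 2.74 against 2.4, 1.95 and 2.07 TPM, and *Kdm4A* had 2.03, 2.01 and 1.49 against 1.41, 1.91 and 1.91 TPM. The groups overlapped for all 3 genes. Their log2 fold changes were -0.10 (SE 0.19), -0.16 (SE 0.14) and -0.05 (SE 0.15), in that order, with limma adjusted p-values of 0.699, 0.427 and 0.808. After size factors *HDAC1* had 13.9, 12.9 and 12.3 scaled TPM in the control and 15.3, 15.3 and 14.9 under HP1a RNAi, without overlap, and a log2 fold change of 0.21 (95% interval 0.01 to 0.41, unadjusted p-value 0.0428, limma adjusted p-value 0.344).

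With HP1a RNAi, 0 of the 9 genes were thus called by limma at an adjusted p-value under 0.05, and 1 (*XNP*) had an unadjusted p-value under 0.05, where 285 of 6573 genes (4.34%) were called, 271 of them lower, and 24.0% had an unadjusted p-value under 0.05. The 3 genes without overlap below the control (*XNP*, *ADD1* and *Su(var)2-HP2*) compare with 31.5% of all tested genes in that position. After size factors 58 genes (0.882%) and none of the 9 were called. On that scale *HDAC1* and *Su(var)2-10* had all 3 HP1a RNAi libraries above every control library, as had 10.4% of all tested genes, and none of the 9 had all 3 below. The scaled log2 fold changes ran from -0.14 to 0.21, with a median of 0.09. Control replicate 2 decided the calls on the deposited scale. Without it *XNP* (-0.48, limma adjusted p-value 0.0378), *ADD1* (-0.36, 0.0331) and *Su(var)2-10* (-0.32, 0.0476) passed the threshold, together with 2767 genes (42.1%) in all, while without control replicate 1 the number of genes called was 60, and without HP1a RNAi replicate 1, 2 or 3 it was 80, 182 or 78, none of them among the 9, and without control replicate 3 it was 210, again with none of the 9. As deposited, the 95% interval of *XNP* lay below 0 before adjustment, and those of the other 8 genes included 0, with lower bounds down to -0.68 and upper bounds up to 0.32.

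**Figure D2:**
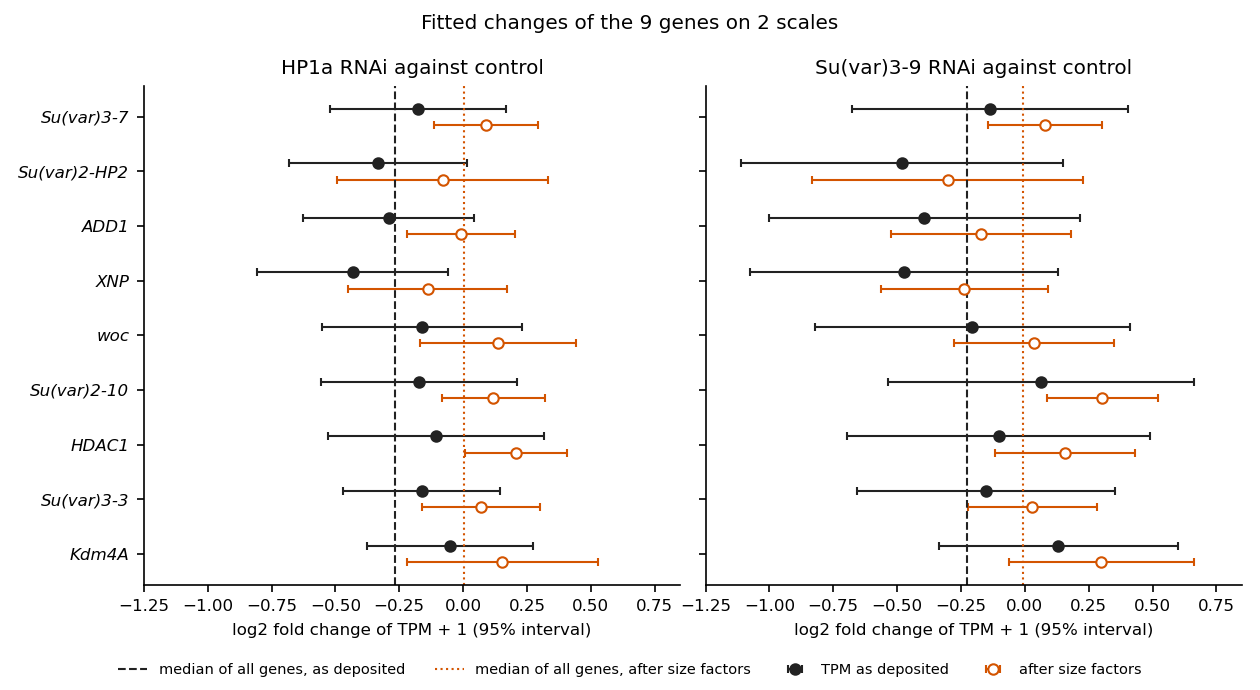
Fitted log2 fold change of TPM + 1 (horizontal axis, with 95% interval) of each of the 9 genes in the libraries labelled HP1a RNAi (left) and Su(var)3-9 RNAi (right) against the control. Filled points are TPM as deposited and open points TPM after size factors, with the median of all 6573 genes as a dashed and a dotted line. On the deposited scale the HP1a RNAi values lie between -0.43 and -0.05, and after size factors between -0.14 and 0.21.

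Libraries carrying the label Su(var)3-9 RNAi gave no call among the 9 genes either, and the 3 libraries differed widely among themselves. The lowest fitted values again belonged to *Su(var)2-HP2*, *XNP* and *ADD1*, at -0.48, -0.47 and -0.39. *Su(var)2-10* and *Kdm4A* were above 0, at 0.06 and 0.13, and the other 7 genes below it, of which *HDAC1*, *Su(var)3-3*, *Su(var)3-7* and *woc* turned to above 0 after size factors. The median of -0.15 compares with -0.23 over all genes. Since both comparisons use the same control libraries, values that are alike in the 2 are not independent of each other.

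*Su(var)2-HP2* showed the widest spread of the 9 genes relative to its level, with 1.27, 2.04 and 4.50 TPM in Su(var)3-9 RNAi replicates 1, 2 and 3 against 3.73, 3.78 and 3.57 TPM in the control. Replicates 1 and 2 were the lowest of the 9 libraries and replicate 3 the highest, so the groups overlapped. The log2 fold change was -0.48 (SE 0.30, 95% interval -1.11 to 0.15, limma adjusted p-value 0.740), and -0.84 (limma adjusted p-value 0.0133) without replicate 3. Without replicate 1 it was -0.20 (limma adjusted p-value 1), so that both libraries moved the value by over 1.5 times in opposite directions. It was -0.30 (95% interval -0.83 to 0.23) after size factors, and -0.51 (limma adjusted p-value 0.300) after size factors without replicate 3.

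The ATRX pair showed the same split among libraries. *ADD1* had 2.87, 4.47 and 6.93 TPM under Su(var)3-9 RNAi against 6.70, 5.59 and 6.51 TPM in the control, and *XNP* had 4.52, 5.91 and 9.25 TPM against 8.64, 8.55 and 10.4 TPM. For both genes replicates 1 and 2 were below every control library and replicate 3 was not. Their log2 fold changes were -0.39 (SE 0.29, limma adjusted p-value 0.751) and -0.47 (SE 0.28, limma adjusted p-value 0.740), and -0.17 and -0.24 after size factors. Single libraries moved these values too: for *ADD1* the value was -0.66 (limma adjusted p-value 0.0917) without replicate 3 and -0.14 without replicate 1, and for *XNP* it was -0.72 (limma adjusted p-value 0.0775) and -0.27. The ratio of *XNP* to *ADD1*, which the scaling of a library cannot move, was 1.57, 1.32 and 1.33 in these libraries, inside the control range of 1.29 to 1.60.

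*Su(var)3-7* had 2.96, 3.31 and 4.77 TPM (log2 fold change -0.14, SE 0.25) and *woc* 5.89, 7.63 and 12.0 TPM (log2 fold change -0.21, SE 0.29) under Su(var)3-9 RNAi, both overlapping the control. Without replicate 3 these values were -0.30 and -0.46, and without replicate 1 they were -0.03 and 0.00. After size factors *Su(var)3-7* was the steadiest of the 9 genes in these libraries, at 3.76, 3.75 and 3.79 scaled TPM, inside the control range of 3.22 to 3.84. *Su(var)2-10* had 6.10, 6.96 and 10.9 TPM, where the control had 8.45, 5.85 and 8.13, with a log2 fold change of 0.06 (SE 0.28, limma adjusted p-value 0.930). After size factors its 3 libraries, at 7.75, 7.89 and 8.69 scaled TPM, were above every control library, at 6.59, 6.17 and 6.38. The scaled log2 fold change was 0.30 (95% interval 0.09 to 0.52), with an unadjusted p-value of 0.0136 and a limma adjusted p-value of 0.336, and its direction on the deposited scale turned to -0.16 without Su(var)3-9 RNAi replicate 3 and was 0.22 without replicate 1.

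The genes of the histone-modifying enzymes overlapped the control. *HDAC1* had 11.7, 14.3 and 16.2 TPM under Su(var)3-9 RNAi, *Su(var)3-3* had 1.56, 2.08 and 2.99 TPM, and *Kdm4A* had 1.87, 1.97 and 2.50 TPM, each overlapping its control values. The log2 fold changes were -0.10 (SE 0.28), -0.15 (SE 0.24) and 0.13 (SE 0.22), in that order, and 0.16, 0.03 and 0.30 after size factors. The limma adjusted p-values on the deposited scale were 0.893, 0.833 and 0.839. Without replicate 3 the values as deposited were -0.20, -0.32 and 0.04, and without replicate 1 they were 0.02, 0.00 and 0.19.

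With Su(var)3-9 RNAi, 0 of the 9 genes were called by limma and 0 had an unadjusted p-value under 0.05, where 11 of 6573 genes (0.167%) were called and 7.55% had an unadjusted p-value under 0.05. None of the 9 had all 3 libraries below every control library, a position that 7.91% of the tested genes held. After size factors 5 genes (0.0761%) and none of the 9 were called, and *Su(var)2-10* was the only one of the 9 with all 3 libraries above the control, where 8% of the tested genes were. The calls depended on Su(var)3-9 RNAi replicate 3: without it *Su(var)2-HP2* was called, with 724 genes (11%) in all, and with array weights, which estimate the quality of each library from the spread of its values, *Su(var)2-HP2*, *XNP* and *ADD1* were called with 4103 genes (62.4%). Leaving out replicate 1 or 2 instead gave 140 or 125 genes and none of the 9, and leaving out control replicate 1, 2 or 3 gave 18, 5 or 13. When replicate 3 was left out and size factors were applied, 17 genes and none of the 9 were called. The 95% intervals of the 9 genes extended from -1.11 to 0.66, wider than under HP1a RNAi.

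Both sets of knockdown libraries were also compared with each other, a comparison that does not use the control. The groups overlapped for all 9 genes. The log2 fold changes (HP1a RNAi minus Su(var)3-9 RNAi) ran from -0.24 for *Su(var)2-10* to 0.15 for *Su(var)2-HP2*, with a median of 0.00 beside -0.04 over all genes. None of the 9 was called or had an unadjusted p-value under 0.05, where 4 of 6573 genes (0.0609%) were called and 121 had an unadjusted p-value under 0.05. The interval of *Su(var)2-HP2* was -0.58 to 0.88 and that of *Su(var)2-10* -0.73 to 0.25, so differences of these sizes between the 2 knockdown labels were not excluded. With array weights *Su(var)2-HP2* was called (0.32, limma adjusted p-value 0.0347), together with 1817 genes (27.6%).

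The transcript table divided the RNA of 6 of the 9 genes among several transcripts. Of the 22 transcripts, 13 passed the filter on low values, and limma called 0 of them in either comparison, where 25 of 7704 transcripts (0.325%) were called with HP1a RNAi and 6 (0.0779%) with Su(var)3-9 RNAi. Unadjusted p-values were under 0.05 for 2 of the 13 with HP1a RNAi (CG4548-RA of *XNP* and CG8290-RB of *ADD1*) and for 0 with Su(var)3-9 RNAi, against 17.4% and 6.52% of all transcripts tested. With array weights 3 of the 13 (CG12864-RA, CG4548-RA and CG8290-RA) were called with Su(var)3-9 RNAi, together with 2035 transcripts (26.4%) in all, and under the other alternatives 0 of them were called in either comparison. Shares within a gene do not move with the scaling of a library, but they depend on how the authors' program divided reads among overlapping transcripts.

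*Su(var)2-HP2* was the gene with the widest range of shares among those with 2 transcripts. Its long transcript CG12864-RA (9953 bases) held 79.1%, 77.8% and 68.6% of the gene's TPM in the control, 65.0%, 75.4% and 67.3% under HP1a RNAi, and 45.7%, 52.0% and 77.6% under Su(var)3-9 RNAi. The share was lower than in every other library in Su(var)3-9 RNAi replicates 1 and 2, the libraries with the lowest level of the gene, and within the control range in replicate 3. The short transcript CG12864-RB (5081 bases), which was too low to be tested, stayed between 0.69 and 1.12 TPM in all 9 libraries, at 0.913 ± 0.181 TPM in the control, 0.833 ± 0.145 under HP1a RNAi and 0.893 ± 0.177 under Su(var)3-9 RNAi (SD, n = 3 each), while CG12864-RA ranged from 0.58 to 3.49 TPM. The log2 fold change of CG12864-RA was -0.38 (limma adjusted p-value 0.306) with HP1a RNAi and -0.63 (limma adjusted p-value 0.803) with Su(var)3-9 RNAi, and without Su(var)3-9 RNAi replicate 3 it was -1.06 (limma adjusted p-value 0.0966). Without replicate 1 of that group it was -0.31 (limma adjusted p-value 1).

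Both transcripts of *ADD1* were well represented. CG8290-RA held 63.7%, 61.9% and 56.6% in the control, 62.8%, 66.7% and 69.3% under HP1a RNAi, and 50.0%, 54.8% and 65.5% under Su(var)3-9 RNAi. These ranges overlapped, and again replicates 1 and 2 of Su(var)3-9 RNAi had the lowest shares of all libraries. With HP1a RNAi, CG8290-RB had a log2 fold change of -0.38 (unadjusted p-value 0.0426, limma adjusted p-value 0.282) and CG8290-RA of -0.17 (limma adjusted p-value 0.469). For *XNP*, CG4548-RA held 91.5% ± 1.66 in the control, 87.8% ± 0.828 under HP1a RNAi and 89.7% ± 1.79 under Su(var)3-9 RNAi (SD, n = 3 each). The HP1a RNAi libraries, at 86.9% to 88.4%, were below the control libraries, at 90.5% to 93.5%, which is the most extreme order that 3 libraries against 3 can give, at a two-sided exact permutation p-value of 0.10. How many of all genes with several transcripts separate in this way was not computed, so the order is not read as a result about *XNP*. For *woc*, CG5965-RA held 77.5% to 94.7%, with overlapping groups.

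The other genes offered less to compare. *Su(var)3-7*, *HDAC1* and *Kdm4A* had 1 transcript each, and CG17149-RA held 87.9% to 100% of *Su(var)3-3*. The 9 transcripts of *Su(var)2-10* were divided unevenly even among controls: CG8068-RE held 42.5%, 35.0% and 9.35% in the 3 control libraries, and CG8068-RH 34.5%, 35.4% and 15.3%. Over all 9 libraries CG8068-RG held 6.31% to 23.4% and CG8068-RD 0% to 22.1%. The remaining share of CG4548-RB and CG5965-RB is the complement of the values given for their partners. CG8068-RC was listed at 0 in all 9 libraries. No difference between groups could be read from shares that varied this much within the control group.

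**Figure D3:**
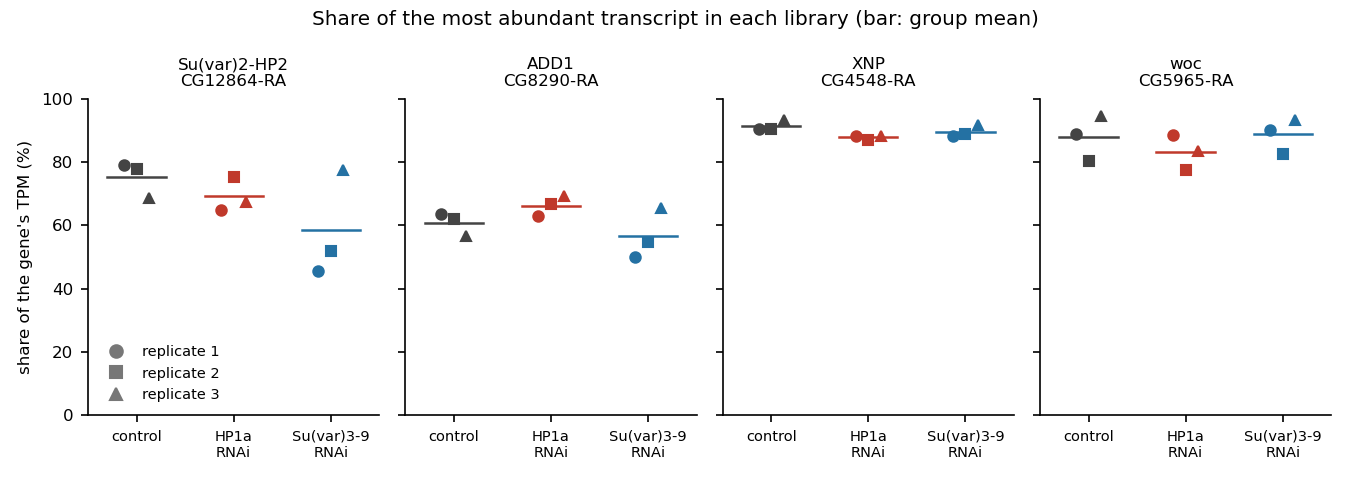
Share (%, vertical axis) of the most abundant transcript in the TPM of *Su(var)2-HP2*, *ADD1*, *XNP* and *woc*, with 1 point per library shaped by replicate number and a bar at the group mean. For *Su(var)2-HP2* and *ADD1*, Su(var)3-9 RNAi replicates 1 and 2 lie lowest, at 45.7% and 52.0% and at 50.0% and 54.8%, while replicate 3 lies at 77.6% and 65.5%.

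After size factors had removed the movement of the median gene, the 9 genes differed in how they varied over the libraries. A size factor is 1 value per library, so movements shared by only some genes, such as those of 1 length class (below), remain. *Su(var)2-HP2* and *ADD1* followed each other most closely, with a Pearson correlation of 0.90 over the 9 libraries, and *woc* and *Su(var)3-3* came next with 0.89. *XNP* went with *Su(var)2-HP2* (0.79) and with *ADD1* (0.76). At the other end, *XNP* and *HDAC1* had a correlation of -0.53, *XNP* and *Su(var)2-10* of -0.48, and *XNP* and *Kdm4A* of -0.45. These values describe 9 libraries that include 3 treatments, and points of a library share its scaling. Pairs of genes outside the 9 were not computed for comparison. In Su(var)3-9 RNAi replicate 1 *Su(var)2-HP2*, *ADD1* and *XNP* lay below their own means, at -0.56, -0.40 and -0.28 on the log2 scale, while *Kdm4A* was at 0.23. Control replicate 2 was the library where *Su(var)2-HP2* and *XNP* were highest, at 0.37 and 0.29.

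**Figure D4:**
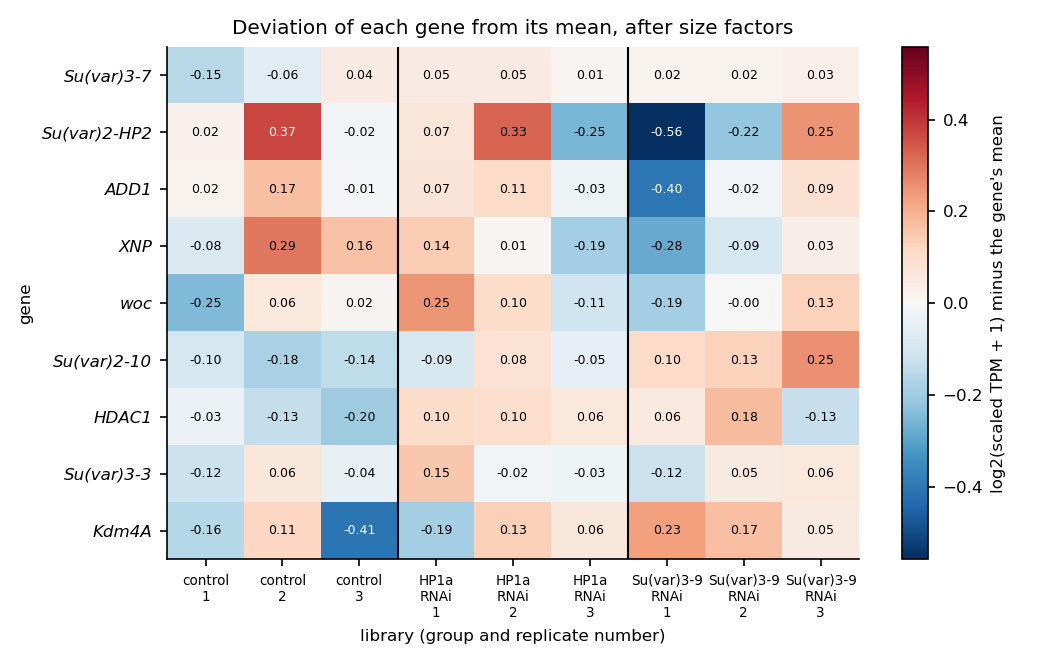
Deviation of log2(scaled TPM + 1) from the mean of the gene over the 9 libraries, after size factors, with genes in rows, libraries in columns and the value printed in each cell (red above and blue below the mean). *Su(var)2-HP2* ranges from -0.56 in Su(var)3-9 RNAi replicate 1 to 0.37 in control replicate 2, and *Su(var)3-7* only from -0.15 to 0.05.

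The median over the 9 genes of these deviations was lowest in Su(var)3-9 RNAi replicate 1, at -0.12, and highest in HP1a RNAi replicate 2, at 0.10. The genes outside the set were ranked by the Pearson correlation of their scaled log2 values with this median over the 9 libraries. The highest were *Sbf* (CG6939, a myotubularin-related protein) with 0.97, *enok* (CG11290, a histone acetyltransferase) with 0.96 and *gig* (CG6975, the fly counterpart of TSC2) with 0.96. They were picked as the highest of all tested genes over only 9 libraries, so high values come with the search. Shared regulation was not tested. *enok* had 2.55, 3.01 and 3.00 TPM in the control, 3.31, 2.88 and 2.31 TPM under HP1a RNAi and 1.55, 2.28 and 3.86 TPM under Su(var)3-9 RNAi, with the lowest level in replicate 1 of the last group.

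The changes were also set beside the length given for each gene, a property that was looked at after the values were known. This length need not be that of any 1 transcript. For *Su(var)2-HP2* it lay between the transcripts of 9953 and 5081 bases, and for *ADD1* between those of 4563 and 3817 bases. The gene table gave *Su(var)2-HP2* 8931 bases, the longest of the 9, and *Kdm4A* 2023 bases, the shortest. Over the 9 genes the log2 fold change had a Pearson correlation with length of -0.57 (Spearman -0.63) under HP1a RNAi and -0.71 (Spearman -0.80) under Su(var)3-9 RNAi. Without Su(var)3-9 RNAi replicate 3 the latter was -0.79 (Spearman -0.80). Across 6296 protein-coding genes the same correlations were -0.08 (Spearman -0.06) and -0.22 (Spearman -0.19). The 104 genes of at least 7500 bases had median log2 fold changes of -0.33 and -0.40, and *Su(var)2-HP2* had -0.33 and -0.48. Genes under 2500 bases had medians of -0.27 and -0.20, and both *HDAC1* and *Kdm4A* were above these medians. *woc* and *Su(var)3-7*, among the long genes of 5000 to 7500 bases, were also above the medians of their class, with -0.16 and -0.18 against -0.28 under HP1a RNAi and -0.21 and -0.14 against -0.31 under Su(var)3-9 RNAi. *XNP*, with a table length in the class of 2500 to 5000 bases, was below the lower quartile of its class in both comparisons: -0.43 against -0.40 under HP1a RNAi, and -0.47 against -0.41 under Su(var)3-9 RNAi. By library, genes of at least 7500 bases had a median of -0.84 and -0.53 relative to the control mean in Su(var)3-9 RNAi replicates 1 and 2 and of -0.54 in HP1a RNAi replicate 3, against -0.39, -0.28 and -0.20 for genes under 2500 bases in the same libraries. In Su(var)3-9 RNAi replicate 3 the order was the opposite, with 0.19 for the long and 0.07 for the short genes. The part of length in the values of *Su(var)2-HP2*, *ADD1* and *XNP* was not tested.

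**Figure D5:**
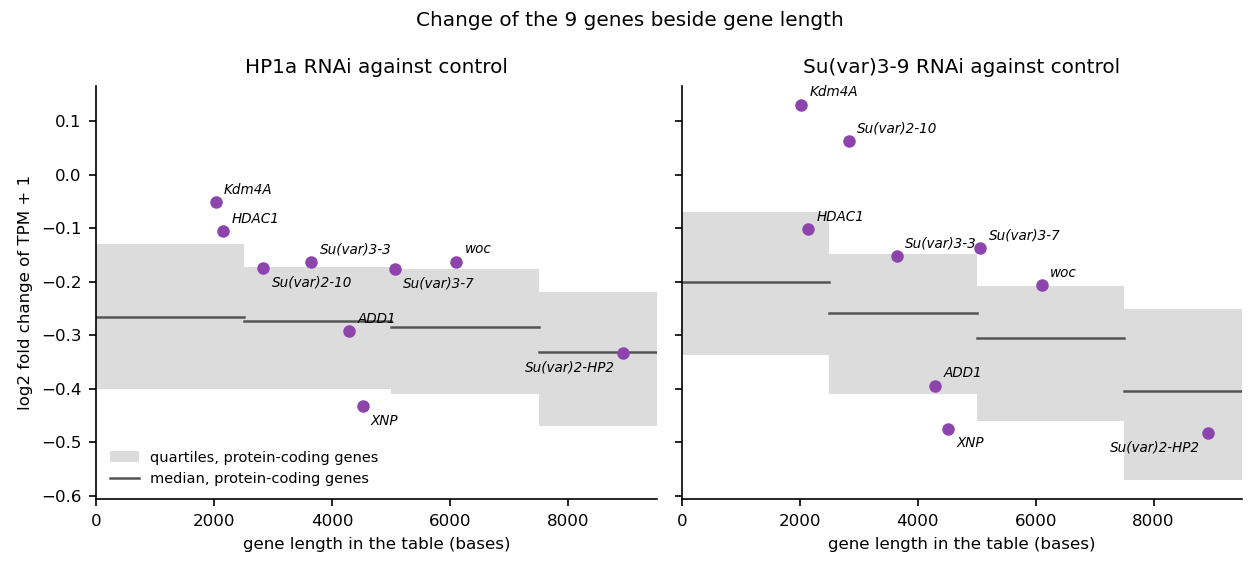
Log2 fold change of TPM + 1 (vertical axis) of the 9 genes against the length the gene table gives (horizontal axis, bases), with HP1a RNAi on the left and Su(var)3-9 RNAi on the right. Lines are medians and bands quartiles of protein-coding genes in 4 length classes. *Su(var)2-HP2*, at 8931 bases, lies at -0.33 and -0.48 beside class medians of -0.33 and -0.40.

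The proteins of the 9 genes work with other factors, and 33 genes of these pathways were listed by role: the HP1 paralogs, the enzymes that methylate histone H3 lysine 9, other HP1a interactors, partners of HDAC1 and Su(var)3-3, the woc complex, the SUMO pathway, chromatin assembly and antagonists of silencing. Of these, 32 were matched and 30 tested. With HP1a RNAi 1 of the 30 passed upward, the targeted gene of HP1a, and 1 downward, *wde*, and with Su(var)3-9 RNAi only the targeted gene *Su(var)3-9* passed, upward. Without the 2 targets the 28 remaining genes had a median log2 fold change of -0.30 in each comparison, 27 of the 28 being below 0 in each, where 90.5% and 87.3% of all tested genes were below 0. These medians stand beside -0.27 and -0.23 over all genes and -0.17 and -0.15 over the 9 genes above. The gene *wde* encodes the partner of the methyltransferase eggless. It had 4.28, 3.53 and 3.89 TPM in the control, 1.94, 2.65 and 2.19 TPM under HP1a RNAi, and 1.02, 1.46 and 3.19 TPM under Su(var)3-9 RNAi. Every knockdown library was below every control library. Of all tested genes, 31.5% held that position with HP1a RNAi and 7.91% with Su(var)3-9 RNAi. The share that held it in both was not computed. The log2 fold changes of *wde* were -0.59 (SE 0.15, limma adjusted p-value 0.0454) and -0.83 (SE 0.27, limma adjusted p-value 0.420). After size factors they were -0.34 (limma adjusted p-value 0.300) and -0.65 (limma adjusted p-value 0.302), so its call held on the deposited scale only. The list also held SUMO and 3 enzymes of its pathway, which work with Su(var)2-10, and none of these 4 genes passed in either comparison.

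Heat stress genes moved with the knockdown labels: 5 of the 7 listed passed downward with HP1a RNAi and 3 of the 7 with Su(var)3-9 RNAi. Over all tested genes 4.34% and 0.167% were called in either direction. The median log2 fold changes of the 7 were -1.43 and -1.40. Their summed level was 423 to 699 TPM in the control, 342 to 381 TPM under HP1a RNAi and 305 to 432 TPM under Su(var)3-9 RNAi, and most of it was *Hsp83*, which did not pass. After size factors 5 and 1 of the 7 passed, where 0.882% and 0.0761% of all tested genes did. The *Hsp70* copies are near-identical and can exchange reads, so the 7 do not count as separate genes. The part of the stress genes, or of the share of protein-coding TPM, in the values of the 9 genes was not tested.

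Some of the 9 genes share exonic sequence with a gene on the opposite strand in a later annotation (release 6 of the genome). The overlap covers 28.5% of the exonic bases of *woc* (with asRNA:CR44049), 13.7% of *Su(var)3-7* (with *TBC1D5*), 8.0% of *HDAC1* (with lncRNA:CR45438) and 3.01% of *ADD1* (with *CG30036*). Whether the libraries kept the strand is not given in the sources used here. How far reads in the shared bases came from the antisense neighbours was not tested, and the other exonic bases of these genes are not shared in that annotation. In the same annotation *Su(var)2-HP2*, *ADD1*, *Su(var)2-10* and *Kdm4A* lie on chromosome arm 2R, *XNP*, *woc* and *Su(var)3-7* on 3R, and *HDAC1* and *Su(var)3-3* on 3L.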

How the data were processed

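RNA was sequenced in 9 libraries, 3 in each of 3 groups, which were assigned from the labels. Per the labels and the methods of the study, the authors trimmed reads with Cutadapt 1.11, aligned them to genome build dm3 with STAR 2.4.5a and estimated TPM per gene and per transcript with RSEM 1.3.0, deposited with 2 decimals. TPM are shares of a library and keep no depth, so a large change of a few abundant RNAs moves all other genes. The deposited tables of the authors' comparisons (posterior probabilities, fold changes and condition means) were not used. Gene names matched for 14532 of 15168 identifiers (95.8%).

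TPM were tested as log2(TPM + 1) for genes averaging 1 TPM or more across the libraries (limma 3.58.1 in R 4.3.3, lmFit and eBayes with trend, two-sided, Benjamini-Hochberg adjustment over all genes), each comparison being fitted on its own 6 libraries. Size factors were medians of ratios over 6447 genes above 0 in every library. The alternatives were the pseudocount, the filter, other scalings, 1 fit of all libraries, array weights, the replicate number as a block and leaving out each library. The exact permutation test of 3 libraries against 3 cannot go below 0.10. Scripts were tested on simulated data. Tables and figures were made with matplotlib 3.10.9, numpy 2.4.6 and pandas 2.3.3 under Python 3.11.15.

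The 9 genes and the lists were chosen with earlier results of these data known. Named were the 9 genes, their transcripts, the 2 targets, the pathway genes that passed or, where at most 1 passed, the 2 with the smallest p-value, and the 3 genes most alike in pattern. The markers NimC1, Hsp83 and Hsp70 were named after their values were seen. A comparison of gene and protein sequences is not analysed here.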

Additional observations from a re-analysis of the deposited data

How the results depend on the processing

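The labels state no pairing of the replicate numbers. Deviations from a group mean sum to 0 within 3 libraries, so their correlations cannot settle whether the numbers pair the libraries. Same-numbered libraries had correlations of -0.45, -0.31 and 0.08 for HP1a RNAi and control. These were -0.19, -0.01 and 0.12 for Su(var)3-9 RNAi and control, and 0.09, 0.12 and -0.11 between the 2 knockdowns. Different-numbered libraries ran from -0.20 to 0.46, from -0.21 to 0.29 and from -0.21 to 0.21 in the same comparisons. With the replicate number as a block, limma called 605 genes with HP1a RNAi and 108 with Su(var)3-9 RNAi, and 7 and 3 transcripts, with 0 of the 9 genes called in any comparison.

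Counts of genes called by limma were 285 with HP1a RNAi, 11 with Su(var)3-9 RNAi and 4 between them. They were 35 and 25 for the 2 knockdowns against the control with all 9 libraries in 1 fit, 1879, 4103 and 1817 with array weights, 58 and 5 for the comparisons with the control after size factors, 49, 5 and 8 with quantile normalization, and 48 with HP1a RNAi and 9 between knockdowns after rescaling to protein-coding genes. They were 5 with Su(var)3-9 RNAi without a trend in eBayes, 114 and 3 with a mean of at least 5 TPM, 26 with HP1a RNAi and 1 between knockdowns with no filter, and 6 with Su(var)3-9 RNAi at a pseudocount of 0.1. Leaving out 1 library gave 60 to 2767 genes with HP1a RNAi, 5 to 724 with Su(var)3-9 RNAi and 3 to 29 between them.

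The count among the 9 genes was 0 in all 3 comparisons, and was 3 with Su(var)3-9 RNAi and 1 between knockdowns with array weights. Leaving out 1 library gave 0 to 3 with HP1a RNAi and 0 to 1 with Su(var)3-9 RNAi. The median of the 9 minus that of all genes was -0.0271 with HP1a RNAi and -0.0291 with Su(var)3-9 RNAi with no filter, and 0.0951 between knockdowns with a mean of at least 5 TPM, a filter that leaves no value for *Su(var)3-7*, *Su(var)2-HP2*, *Su(var)3-3* and *Kdm4A*.

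Transcripts called by limma were 25 with HP1a RNAi and 6 with Su(var)3-9 RNAi. With HP1a RNAi they were 10 with all 9 libraries in 1 fit and 6 with no filter. With Su(var)3-9 RNAi they were 2035 with array weights, and 3 with a mean of at least 5 TPM, with a pseudocount of 0.1 and with quantile normalization. After rescaling to protein-coding genes they were 14 and 1. Leaving out 1 library gave 6 to 1056 and 4 to 17.

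Scalings that follow the median gene turned directions. With HP1a RNAi, size factors gave log2 fold changes of 0.21 for *HDAC1*, 0.15 for *Kdm4A*, 0.12 for *Su(var)2-10*, 0.0692 for *Su(var)3-3*, 0.0886 for *Su(var)3-7*, 0.14 for *woc* and 0.0886 for CG8290-RA. Quantile normalization gave 0.23, 0.16, 0.11, 0.0777, 0.0898, 0.14 and 0.0912 in the same order, and rescaling to protein-coding genes 0.25, 0.26, 0.17, 0.13, 0.14, 0.18 and 0.14, with 0.0205 for *ADD1*. With Su(var)3-9 RNAi, *HDAC1*, *Su(var)3-3*, *Su(var)3-7* and *woc* were at 0.16, 0.0297, 0.0780 and 0.0361 after size factors, at 0.20, 0.0903, 0.12 and 0.0669 after quantile normalization, where CG8290-RB was at 0.0032, and at 0.16, 0.0317, 0.0877 and 0.0304 after rescaling to protein-coding genes. Array weights turned *Su(var)2-10* to -0.18.

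Between knockdowns, *HDAC1*, *Su(var)3-3* and *Su(var)3-7* turned to 0.0517, 0.0395 and 0.0106 after size factors and 0.10, 0.0937 and 0.0533 after rescaling, *HDAC1* to 0.0270 after quantile normalization, and *Su(var)3-3* and *Su(var)3-7* to 0.0419 and 0.0613 with array weights. Size factors without Su(var)3-9 RNAi replicate 3, chosen after seeing the data, gave 17 genes and 1 transcript with Su(var)3-9 RNAi, with *HDAC1* at 0.24 and *Su(var)3-7* at 0.0741, and between knockdowns *Su(var)3-3* at 0.0711 and *Su(var)3-7* at 0.0145.

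When 1 library was left out, the log2 fold change with HP1a RNAi ran from -0.14 to 0.0393 for *Kdm4A* and from -0.24 to 0.0090 for *HDAC1*. With Su(var)3-9 RNAi it ran from -0.24 to 0.0177 for *HDAC1*, from -0.46 to 0.0019 for *woc* and from -0.16 to 0.22 for *Su(var)2-10*. Between knockdowns it ran from -0.15 to 0.36 for *ADD1*, from -0.12 to 0.10 for *HDAC1*, from -0.13 to 0.50 for *Su(var)2-HP2*, from -0.16 to 0.16 for *Su(var)3-3*, from -0.15 to 0.12 for *Su(var)3-7*, from -0.16 to 0.29 for *XNP* and from -0.16 to 0.30 for *woc*. The cause of these changes was not tested. Depth was not used here, so how far it limits the low genes *Kdm4A* and *Su(var)3-3* was not tested.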
